A study of Mus musculus with 3 samples.

Results

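The Apln Prok2 Spon2 cells were 456 of the 3716 kept cells of the library without supplements, taken from converting mouse fibroblasts at 14 dpi, as the labels write the time, which is 12.3% of them (exact binomial interval 11.2 to 13.4). They were chosen from their own counts of unique molecular identifiers (UMIs, 1 for each captured transcript molecule). A member had at least 3 UMIs of Apln, Prok2 and Spon2 together, fewer than 5 UMIs of Ecel1, Fxyd7 and Snhg11 together, and fewer than 10 UMIs of Col1a1. The 3 libraries of the series held 10522 kept cells, each with at least 500 genes and at most 20% mitochondrially encoded UMIs. Because the members were picked by transcript counts of these same cells, every level and ratio here is a description, and none was tested. Each group of the study has 1 library, so no difference has a replicate check, and all intervals given are 95% intervals that cover counting error only.

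All cells in the study came from mouse embryonic fibroblasts that carried the Hb9::GFP reporter, a fluorescent protein under control of regulatory DNA from Mnx1, a gene of motor neurons. All had received the factor cassette LNI, mLhx3-P2A-mNgn2x3HA-T2A-Isl1, and DDRR, which joins HRAS(G12V) to p53DD. The library without supplements was sorted by flow cytometry for live Hb9::GFP-positive cells and lacked BDNF, CNTF, GDNF, FGF and RepSox. The second 14 dpi library was sorted in the same way from a culture that had those supplements, and the 4 dpi library, also with supplements, was sorted for low CellTrace-FarRed, a dye diluted by division. The sort limits what the 14 dpi libraries can show to cells with reporter fluorescence, and reads near the 3′ end cannot separate cassette transcripts from those of the cells' own Lhx3, Neurog2, Isl1, Hras and Trp53 genes. The labels give all 3 libraries the same batch date.

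Apelin, the product of Apln, is a secreted peptide that acts on the G protein-coupled receptor Aplnr and is best known from blood vessels and the heart. Prokineticin 2, made from Prok2, is a secreted protein that signals through Prokr1 and Prokr2, with roles in the migration of olfactory bulb neuron precursors and in daily rhythms. Spondin 2, made from Spon2 and also called mindin, is a secreted protein of the extracellular matrix. The other label genes are Aldh1a3, an enzyme that makes retinoic acid, and Igfbp3, a secreted carrier of insulin-like growth factors.

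The 250 bases before the transcription start of both peptide genes are shown. Spon2, the only marker in just 15 members, had no such window in the RefSeq table. The windows shown come from RefSeq (build GRCm38.p6, minus strand for both genes, 5′ to 3′), a build that differs from the one used for the counts. Capitals mark matches to the E-box letters CANNTG, which proneural factors such as Neurog2 can bind, or to ACGTG, a form of the core letters bound by hypoxia-inducible factors. Other forms of that core were neither searched for nor marked. Both strands were searched, and CACGTG matches both motifs. The Apln window is chrX:48034854-48035103 and the Prok2 window chr6:99726393-99726642.
Apln: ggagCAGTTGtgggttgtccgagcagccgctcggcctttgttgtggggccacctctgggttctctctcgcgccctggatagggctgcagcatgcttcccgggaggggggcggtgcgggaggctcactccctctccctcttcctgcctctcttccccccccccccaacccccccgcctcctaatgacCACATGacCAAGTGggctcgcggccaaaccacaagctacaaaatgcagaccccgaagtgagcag
Prok2: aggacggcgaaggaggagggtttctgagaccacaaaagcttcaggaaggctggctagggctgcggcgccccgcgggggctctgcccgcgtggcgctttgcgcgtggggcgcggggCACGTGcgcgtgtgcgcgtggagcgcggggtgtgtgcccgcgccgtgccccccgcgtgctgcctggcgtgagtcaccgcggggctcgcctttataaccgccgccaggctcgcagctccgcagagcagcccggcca
The Apln window held 3 matches to CANNTG and 0 to ACGTG. In the Prok2 window a single CACGTG gave its 1 match to CANNTG and, read on both strands, its 2 matches to ACGTG. Of 32851 such windows in the RefSeq table, 66.2% held a CANNTG match and 16.6% an ACGTG match. A match does not show that a factor binds there.

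Within the rule, Apln was the most often detected marker and Spon2 the least. Apln was detected in 364 members (79.8%), Prok2 in 275 (60.3%) and Spon2 in 137 (30.0%). The largest class, 157 cells, had Apln and Prok2 but no Spon2. Apln was the only marker in 103 members, Prok2 in 59 and Spon2 in 15. Apln with Spon2 marked 63 cells, Prok2 with Spon2 18, and all 3 genes were present in 41, or 8.99% of the members. The members are therefore a union of cells chosen through different genes, and few had all 3 detected at this depth.

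Summed over cells and scaled to counts per 1000000 UMIs (CPM), Apln stood at 201 CPM in the members and 42.3 CPM in the 3260 other kept cells of the library. Prok2 had 143 CPM in the members and 15.7 CPM in the others, and Spon2 had 84.6 and 17.2 CPM. No member had more than 19 UMIs of Apln, 27 of Prok2 or 29 of Spon2. The marker sum had a median of 5 and a maximum of 37, and only 72 members had 10 or more. Just inside the limit, 119 members had exactly 3 marker UMIs, while 215 cells that met both upper limits had 2 and stayed outside. Shisa2, which the rule does not use, stood at 113 CPM just inside and 64.0 CPM just outside, Aldh1a3 at 96.3 and 82.7 CPM and Igfbp3 at 759.9 and 756 CPM.

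The upper limits removed cells that shared the markers. Of 674 kept cells at the marker minimum, 178 were left out for Col1a1 alone, 37 for the Ecel1, Fxyd7 and Snhg11 sum alone and 3 for both. Near the Col1a1 limit, 24 members had 8 or 9 UMIs and 26 otherwise qualifying cells had 10 or 11. Near the other limit, 12 members had a sum of 4 and 5 otherwise qualifying cells had a sum of 5. Most members were far from this limit, since 333 had no UMI of Ecel1, Fxyd7 or Snhg11. No UMI of Col1a1 was found in 224 of the 456 members. The other kept cells were divided by the same genes into 579 Ecel1 Fxyd7 Snhg11 cells (sum of 5 or more), 579 Col1a1 cells (10 UMIs or more with a sum under 5) and 2102 remaining cells.

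Depth matters for a rule set in UMIs. Members had a median of 13019 UMIs and 3660 genes per cell, against 10398.5 UMIs and 3349.5 genes in the other kept cells. When each cell was first thinned to 3000 UMIs, 123 of 3629 cells met the rule, or 3.39% (2.82 to 4.03). The same rule found 61 of 2314 kept cells with supplements, 2.64% (2.02 to 3.37), and 25 of 4492 at 4 dpi, 0.557% (0.360 to 0.820). After thinning to the same 3000 UMIs, it found 5 of 2200 with supplements, 0.227% (0.0738 to 0.530), and 3 of 1433 at 4 dpi, 0.209% (0.0432 to 0.611). The library without supplements had the highest share in both forms, and culture, sort and library cannot be told apart. At 4 dpi Prok2 had 1 UMI in all, so the few cells there were chosen through Apln and Spon2. The members shared 1 cell barcode with the library with supplements and 1 with the 4 dpi library.

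In the thinned cells of the whole library, the markers overlapped unequally. Apln was found in 21.9% of cells with Prok2 (17.2 to 27.1), against 13.3% of cells without it (12.2 to 14.5). It was found in 27.6% of cells with Spon2 (21.1 to 35), against 13.3% of cells without it (12.2 to 14.5). Prok2 was found in 8.24% of cells with Spon2 (4.58 to 13.4) and 7.92% of cells without it (7.04 to 8.87), values whose intervals overlap. Unthinned, Prok2 had a UMI in 15.5% of the Ecel1 Fxyd7 Snhg11 cells and 16.1% of the Col1a1 cells, Apln in 18.0% and 51.5%, and Spon2 in 2.59% and 23.3%. How much of these shares is free RNA was not tested.

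**Figure D1:**
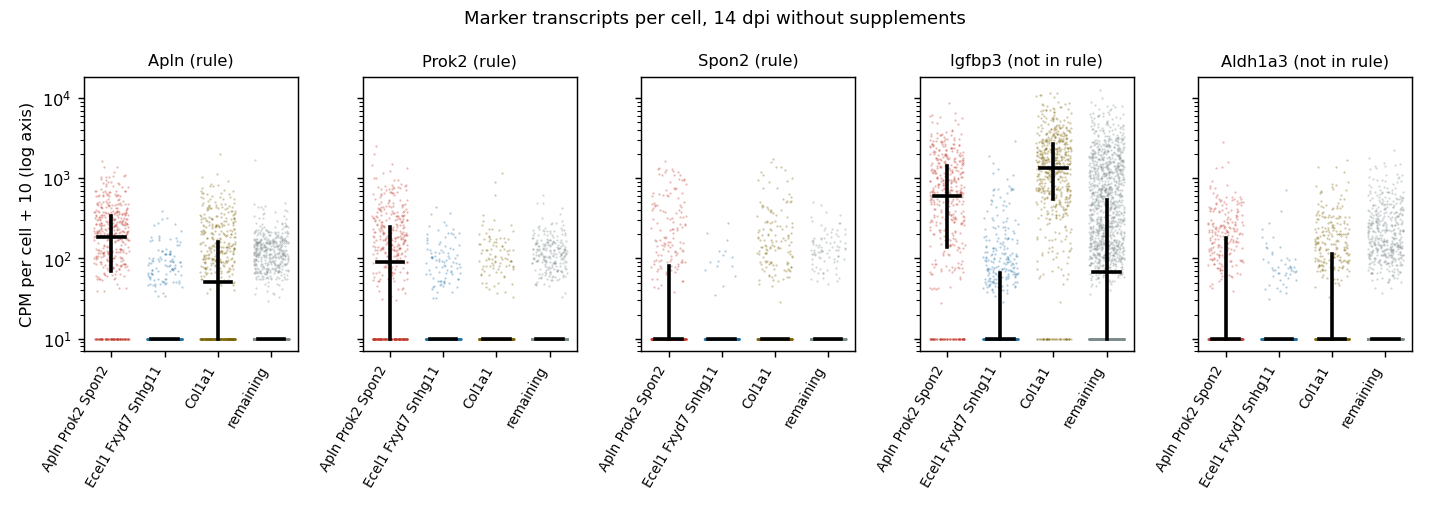
CPM per cell plus 10, on a log axis, of the 5 label genes in Apln Prok2 Spon2 cells and the 3 other groups of the 14 dpi library without supplements; each point is a cell, wide black bars are medians and upright bars span the quartiles. Igfbp3 reaches a median of 584 CPM before the added 10 in the members, below the 1352 CPM of the Col1a1 cells, while the rule genes Apln and Prok2 are highest in the members because they chose them.

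Of the label genes that the rule did not use, Aldh1a3 was higher in the members than in every other group and Igfbp3 only than in some. Aldh1a3 stood at 127 CPM in the members and 51.8 CPM in the other kept cells, a log2 ratio of 1.29 (1.17 to 1.41). It was lower in each other group, at 7.99 CPM in Ecel1 Fxyd7 Snhg11 cells, 84.1 CPM in Col1a1 cells and 59.6 CPM in remaining cells. It was detected in 44.1% of members, against 37.3% of Col1a1 cells and 21.5% of all other kept cells. With cells thinned to 3000 UMIs before the rule was applied, its ratio was 0.59, under 2-fold. Igfbp3 stood at 950.0 CPM in the members and 663 CPM in the other kept cells (log2 0.52, 0.48 to 0.56). It was detected in 84.0% of members, where cells at the quartiles had 129, 584 and 1412 CPM, and in 56.2% of the other kept cells, with quartiles of 0, 82.7 and 751 CPM. Its level in Col1a1 cells was higher still, at 1877 CPM, and that in Ecel1 Fxyd7 Snhg11 cells only 91.4 CPM.

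The receptors of both peptides were barely detected. Aplnr had 0 UMIs in the members and 4 in the other kept cells, and the other apelin-receptor ligand Apela and the second prokineticin Prok1 also had 0. Prokr1 stood at 4.29 CPM in the members and 4.27 CPM in the other kept cells. Prokr2 stood at 5.62 and 1.97 CPM, a log2 ratio of 1.51 (0.91 to 2.09) that rests on 38 UMIs in the members. The ligands were thus measured in cells in which the transcript of the apelin receptor was not detected at this depth.

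Apln is also known from endothelial tip cells, and markers of the vessel lining were measured beside it. None of 9 endothelial markers reached 10 CPM, Cdh5, Tek, Emcn, Cldn5 and Tie1 were at 0 UMIs in the members, and the list summed to 3.25 CPM in the members and 3.04 CPM in the other kept cells. In the tip cell list, Cxcr4 and Kcne3 were at 0 in the members, and Pgf, a growth factor of vessels, was the only gene at 10 CPM, at 56.5 and 38.7 CPM (0.54), with a smallest ratio of 0.29 over the other groups. The macrophage list summed to 8.87 and 7.88 CPM, with Ptprc, Adgre1, C1qa and Lyz2 at 0 in the members. Lists for skeletal muscle (3.70 and 8.31 CPM), glia (6.21 and 7.44 CPM) and melanocytes (7.39 and 8.34 CPM) also had no gene at 10 CPM. In the cartilage list Sox9 alone reached 10 CPM, at 149 and 90.0 CPM, and in the adipocyte list Fabp4 alone, at 20.5 and 23.0 CPM. The label names marker genes and no cell type, and no cell type name is given here.

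Across the transcriptome, of 9094 genes at 10 CPM or more on either side, with the 7 rule genes left out, 120 (1.32%) were at least 2-fold higher in the members and 459 (5.05%) at least 2-fold lower, with a median log2 ratio over all of -0.07. With no CPM minimum the counts were 4264 higher and 1947 lower. The first takes in genes with no UMI in the members, because a sum of 0 was set to 3 counts. Apela, with 0 UMIs in the members and 3 in the other kept cells, was called higher in this way. The 4264 is therefore no count of genes with more transcripts in the members. Against the Ecel1 Fxyd7 Snhg11 cells, 702 of 9588 genes (7.32%) were at least 2-fold higher and 1496 (15.6%) lower. Against the Col1a1 cells the counts were 351 (3.97%) and 373 (4.22%) of 8841, and against the remaining cells 161 (1.79%) and 331 (3.68%) of 8985. These calls use the same cells as the rule and nothing is read from their number.

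Among genes at 50 CPM or more on the higher side, the highest was Shisa2, which codes for a protein of the endoplasmic reticulum that holds back FGF and Wnt receptors, as first described for the Xenopus Shisa protein. It stood at 119 CPM in the members and 34.0 CPM in the other kept cells (log2 1.80, 1.67 to 1.93). It was higher in the members than in each other group, where it stood between 20.5 CPM in Ecel1 Fxyd7 Snhg11 cells and 42.1 CPM in remaining cells. In cells thinned to 3000 UMIs it was detected in 20.2% of members and 7.21% of the other kept cells, so most members lacked it at that depth.

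Genes of division, given further on, made up much of the rest of the highest, and the following are named by their ratio or because they stood above every other group. Grem1, a secreted antagonist of bone morphogenetic proteins, stood at 128 CPM in the members and 49.2 CPM in the other kept cells (log2 1.38, 1.26 to 1.496). Efemp1, which codes for the matrix protein fibulin-3, stood at 177 and 84.5 CPM (1.07), and the collagen gene Col26a1 at 225 and 120 CPM (0.90). Igfbp2, another carrier of insulin-like growth factors, stood at 99.0 and 46.0 CPM (1.11). Adamts4, a protease that cleaves aggrecan, stood at 58.0 and 25.4 CPM (1.19). Apart from Adamts4, these genes were among the 8 with the highest smallest ratio over the 3 other groups, at 50 CPM or more in the members, together with Shisa2, Eif4e3, Ndst4 and Nptx1. Eif4e3, a cap-binding protein of the eIF4E family, stood at 103 and 43.4 CPM (1.25). Ndst4, an enzyme that modifies heparan sulfate, stood at 82.5 and 38.3 CPM (1.11). Nptx1, a secreted neuronal pentraxin, stood at 62.2 and 30.7 CPM (1.02). Below that level, Fosl1 had a smallest ratio of 1.53 and Rspo1 of 1.21. For the 8 genes this ratio lay between 0.80 for Igfbp2 and 1.49 for Shisa2.

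Some high genes rested on fewer cells or on other groups. S100a4, a calcium-binding protein used as a fibroblast marker, stood at 107 and 40.4 CPM (log2 1.41), but 1 cell gave 17.5% of its UMIs in the members, and the Col1a1 cells had 92.3 CPM. Crym, which codes for a thyroid hormone-binding protein, stood at 50.1 and 20.7 CPM (1.28), close to the 51.2 CPM of the Col1a1 cells. Krtdap, a secreted peptide of differentiating keratinocytes, stood at 147 and 65.7 CPM (1.16), with 22.3% of its member UMIs in 1 cell, and its ratio was -0.04 when cells were thinned to 3000 UMIs before the rule was applied. Krt5, Krt14, Krt19 and Cdh1 were at 0 in the members. Sox2, a factor of neural progenitors, stood at 15.5 and 6.68 CPM (1.22), with 26.7% of its UMIs in 1 cell and a ratio of -0.19 after the same thinning.

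**Figure D2:**
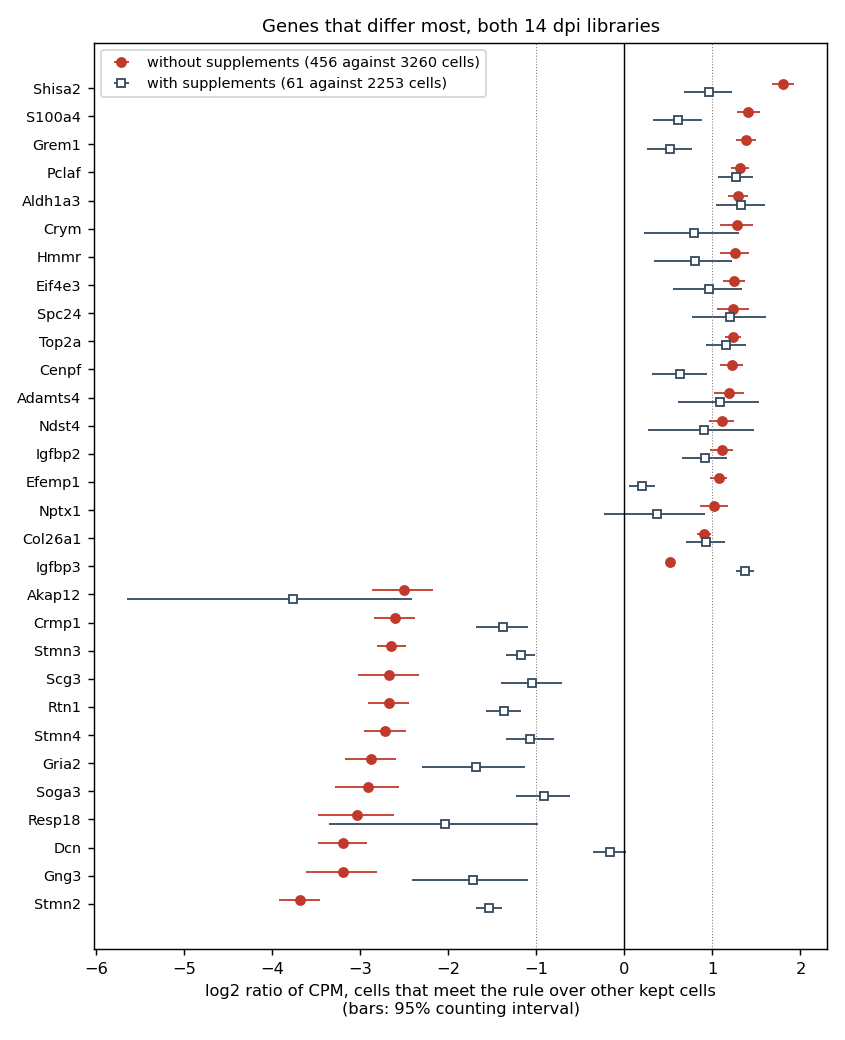
Log2 ratio of CPM in cells that meet the rule over the other kept cells, for the genes with the most extreme ratios among those at 50 CPM or more on the higher side and the label genes Aldh1a3 and Igfbp3; filled circles are the 14 dpi library without supplements, open squares the one with supplements, bars are 95% counting intervals and dotted lines mark 2-fold. Among these, Shisa2 is highest at 1.80 and Stmn2 lowest at -3.68 without supplements, and Dcn differs between the libraries, at -3.20 without and -0.17 with supplements.

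Neuronal transcripts were lower in the members, with exceptions among the neurofilaments. Of 20 pan-neuronal genes 14 were at least 2-fold lower (5.05% of all genes) and 0 higher (1.32%), with a median log2 ratio of -1.59 (all genes -0.07). Stmn2, a regulator of microtubules in growing axons, stood at 23.2 CPM in the members and 298 CPM in the other kept cells (-3.68, -3.92 to -3.46). It had a UMI in 8.77% of members and 29.0% of the other kept cells. The neuronal tubulin Tubb3 stood at 239 and 530 CPM (-1.15) and the heavy neurofilament Nefh at 1.48 and 14.8 CPM (-3.32). The light neurofilament Nefl, in contrast, stood at 1472 and 1131 CPM (0.38), and the medium chain Nefm at 804 and 870 CPM (-0.11). Nefl was detected in 86.8% of thinned members and 73.3% of the other thinned cells.

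The limit on Ecel1, Fxyd7 and Snhg11 keeps neurons out of the members, so a low neuronal level is in part built in. Against the remaining cells, which obey the same limit, the pan-neuronal median was still -1.27. Against the Ecel1 Fxyd7 Snhg11 cells it was -2.60, and against the Col1a1 cells it was 1.05, that is, higher in the members. Per cell, the list took a median of 0.359% of UMIs in the members, against 1.30% in Ecel1 Fxyd7 Snhg11 cells, 0.0838% in Col1a1 cells and 0.603% in remaining cells. The members thus lay between the Col1a1 cells and the other groups in neuronal transcripts.

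Genes of synaptic vesicles and secretory granules were lower still. Of 18 measured, 15 were at least 2-fold lower in the members (5.05% of all genes) and 0 higher (1.32%), with a median of -2.05. Cplx1, which clamps and promotes vesicle fusion, stood at 2.81 and 45.8 CPM (-4.03, -4.76 to -3.38), and Scg5, a chaperone of prohormone convertase, at 4.88 and 47.2 CPM (-3.27). The granin Scg3 stood at 10.5 and 66.8 CPM (-2.67). Least different were Cpe, which trims prohormones, at 229 and 385 CPM (-0.75), and Cplx2 at 11.7 and 21.4 CPM (-0.87). Other neuronal genes among the 12 lowest at 50 CPM or more in the other kept cells were Gng3, a G protein subunit (-3.20), the neuroendocrine gene Resp18 (-3.03), the AMPA receptor subunit Gria2 (-2.88), the stathmins Stmn4 (-2.72) and Stmn3 (-2.65), the reticulon Rtn1 (-2.68) and Crmp1, which takes part in axon guidance (-2.61). Soga3 (-2.91) and the kinase scaffold Akap12 (-2.51) completed them, with Dcn.

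Motor neuron genes were also lower in the members, by less than the pan-neuronal ones, while the reporter differed less. Mnx1, the gene behind the reporter, stood at 6.06 CPM in the members and 24.0 CPM in the other kept cells (-1.99, -2.47 to -1.54). The GDNF receptor Ret stood at 25.4 and 60.7 CPM (-1.25). Of 8 motor neuron and cholinergic genes, 3 were at least 2-fold lower (5.05% of all genes) and 0 higher (1.32%), with a median of -0.75. Over the remaining cells 1 of 8 was at least 2-fold lower (3.68% of all genes), with a median of -0.45. The median was 0.51 over Col1a1 cells, and -0.001 for rule-meeting cells with supplements. Slc18a3 or Chat, the transporter and the enzyme of acetylcholine, had a UMI in 8.77% of members (6.34 to 11.8). The shares were 36.3% of Ecel1 Fxyd7 Snhg11 cells, 2.07% of Col1a1 cells and 10.8% of remaining cells (9.46 to 12.2). The last interval overlaps that of the members. The reporter transcript v.EGFP was detected in 94.1% of members (91.5 to 96.1) and 88.0% of the other kept cells (86.8 to 89.1). These shares are unthinned, and the members had more UMIs per cell. After thinning they were 83.7% (80.0 to 87.0) and 80.0% (78.6 to 81.4), with overlapping intervals. By group the unthinned share was 97.9% of Ecel1 Fxyd7 Snhg11 cells, 65.5% of Col1a1 cells and 91.4% of remaining cells (90.2 to 92.6). The level of v.EGFP was lower in the members than in the other kept cells, at 1507 and 1981 CPM (-0.39). All 6 reporter and cassette genes lay within 2-fold, from -0.39 for v.EGFP to 0.03 for Trp53. Neurog2 stood at 95.4 and 112 CPM (-0.23), Isl1 at 54.7 and 66.6 CPM (-0.28), Lhx3 at 46.6 and 60.5 CPM (-0.38) and Hras at 111 and 123 CPM (-0.15).

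**Figure D3:**
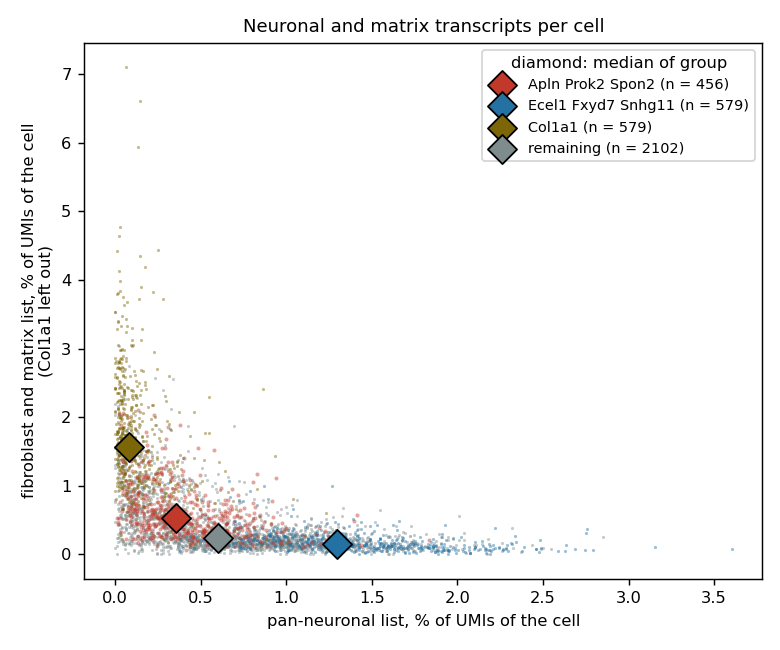
Share of each cell's UMIs in the fibroblast and matrix list (Col1a1 left out) against that in the pan-neuronal list, both in percent; small points are cells and diamonds group medians. The diamond of the 456 Apln Prok2 Spon2 cells lies at 0.359% neuronal and 0.529% matrix, between that of the Col1a1 cells at 0.0838% and 1.57% and that of the remaining cells at 0.603% and 0.244%.

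Matrix genes placed the members between the same groups from the other side. The fibroblast and matrix list took a median of 0.529% of UMIs per member, against 1.57% in Col1a1 cells, 0.155% in Ecel1 Fxyd7 Snhg11 cells and 0.244% in remaining cells. Over all other kept cells 1 of its 23 measured genes was at least 2-fold higher (1.32% of all genes) and 3 lower (5.05%), with a median of 0.12. The median was 1.57 over Ecel1 Fxyd7 Snhg11 cells, 0.67 over remaining cells and -1.35 over Col1a1 cells. Prrx1, a homeobox factor of mesenchyme, was higher than in every other group, at 637 CPM in the members and between 415 and 470 CPM elsewhere. Col1a2, the partner chain of Col1a1 in collagen type I, stood at 1076 CPM in the members, 3379 CPM in Col1a1 cells, 305 CPM in Ecel1 Fxyd7 Snhg11 cells and 622 CPM in remaining cells. Sparc, a collagen-binding matrix protein, stood at 989 CPM in the members, 2639 CPM in Col1a1 cells and 449 CPM in remaining cells. Col1a2, Sparc, Postn, Tubb3, Vegfa, Aldh1a1 and Aldh1a2 lie outside the rule for named genes and were chosen after their values were seen.

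The 3 lower matrix genes were Dcn, Lum and Postn. The proteoglycan gene Dcn stood at 16.4 CPM in the members and 151 CPM in the other kept cells (-3.20), Lum at 16.6 and 62.3 CPM (-1.91) and Postn at 47.2 and 108 CPM (-1.19). These values moved with the limit on Col1a1. Without that limit the ratios of Dcn and Lum were 0.44 and 0.72, and against the remaining cells, which obey it, they were -0.79 and -0.27. The contractile gene Tagln showed the same, with -2.31 over all other kept cells, 0.04 over those that obey both limits and 0.21 with no Col1a1 limit. So did the growth factor carrier Igfbp7, with -1.34 over all, -0.30 over remaining cells and 0.14 with no limit.

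In the families of the label genes, few members were past 2-fold. Among insulin-like growth factor genes, 6 of 7 measured were higher in the members than in the other kept cells, with a median of 0.36, but only Igfbp2 was past 2-fold upward and only Igfbp7 downward, and the receptor gene Igf1r stood at 94.5 and 87.9 CPM (0.10). In the retinoid list Aldh1a3 alone was past 2-fold. Crabp1, which binds retinoic acid in the cytoplasm, stood at 795 and 445 CPM (0.84, 0.79 to 0.88) and Crabp2 at 38.3 and 40.3 CPM (-0.08). Aldh1a1 and Aldh1a2, the other retinaldehyde dehydrogenases of the family, had 0 UMIs in the members. Among spondins and thrombospondins, Rspo1, which strengthens Wnt signals, stood at 10.5 and 3.81 CPM (1.46), while Spon1 stood at 34.9 and 32.6 CPM (0.10). Rspo3 stood at 10.5 and 13.5 CPM (-0.37) and Thbs2 at 8.43 and 15.3 CPM (-0.86), Thbs2 with 63.2% of its member UMIs in 1 cell, and the median over 5 measured genes was -0.34.

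Genes of the response to low oxygen, in which Apln is often counted, gave no member past 2-fold. That is 0 of 18 outside glycolysis, where 1.32% of all genes were at least 2-fold higher and 5.05% lower, so the count is near that of all genes, and their median was 0.07. The highest were Egln3, an oxygen-sensing hydroxylase, at 99.5 CPM in the members and 63.3 CPM in the other kept cells (0.65), and the lysyl oxidase Loxl2 at 119 and 88.3 CPM (0.43). Vegfa stood at 103 and 107 CPM (-0.06). Of 21 glycolysis and sugar transport genes 0 were at least 2-fold higher and 1 lower, the neuronal enolase Eno2 at 8.72 and 23.5 CPM (-1.43), with a median of -0.01. Per cell these genes took a median of 0.999% of UMIs in members and 0.994% in the other kept cells.

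Cell division genes were higher in the members, by an amount that depended on the rule. Of 10 G2/M genes 9 were at least 2-fold higher (1.32% of all genes), with a median of 1.11, and of 9 S phase genes 3 were, with a median of 0.95. At a marker minimum of 6 UMIs the G2/M median was 0.54, Hmmr had 0.34, Cenpf 0.40 and Ccnb2 -0.18, against 1.00 for Ccnb2 at the minimum of 3. Top2a, which untangles chromosomes before division, stood at 201 CPM in the members and 85.6 CPM in the other kept cells (1.23, 1.14 to 1.32). Pclaf, which binds the replication clamp, stood at 162 and 65.2 CPM (1.31), the spindle gene Hmmr at 63.0 and 26.4 CPM (1.25), the kinetochore genes Spc24 at 50.7 and 21.5 CPM (1.24) and Cenpf at 104 and 44.9 CPM (1.22), and Mki67 at 95.2 and 47.0 CPM (1.02). These levels were close to those of the Col1a1 cells, over which the G2/M median was 0.11, and far above those of the Ecel1 Fxyd7 Snhg11 cells (3.35).

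Cells with many G2/M transcripts were also more frequent among the members. A sum of at least 5 G2/M UMIs was found in 100 of 456 members, 21.9% (18.2 to 26.0), and in 294 of 3260 other kept cells, 9.02% (8.06 to 10.1). With cells thinned to 3000 UMIs and a sum of at least 2, the shares were 20.4% of members (16.8 to 24.4) and 8.35% of the others (7.41 to 9.37). They were 17.9% of Col1a1 cells, 7.76% of remaining cells and 0.867% of Ecel1 Fxyd7 Snhg11 cells. When cells with the high G2/M sum were left out of both sides, 71 genes were at least 2-fold higher, of which 42 were among the 120 above. Hmmr then had a ratio of -0.53 (-3.67 to 1.51), Cenpf -0.35 (-1.19 to 0.40) and Mki67 -0.46 (-1.96 to 0.75). These rest on 2, 16 and 6 member UMIs, and their intervals span 0. Mki67 is itself in the G2/M list by which the cells were left out, so its fall is built in. Without the same cells Shisa2 had 1.95, Aldh1a3 1.60, Grem1 1.57 and Ccnd1 1.29.

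Among targets of the Ras-ERK pathway, which HRAS(G12V) activates, 2 of 14 measured genes were at least 2-fold higher (1.32% of all genes) and 0 lower (5.05%), with a median of 0.38. Cyclin D1, from Ccnd1, drives entry into the cell cycle. It stood at 860 CPM in the members and 396 CPM in the other kept cells (1.12, 1.07 to 1.16), and was higher than in each other group, the nearest being the Col1a1 cells at 691 CPM. Fosl1, a member of the AP-1 factors, stood at 26.8 and 7.32 CPM (1.87, 1.59 to 2.14). Lowest were the growth factor gene Areg at 94.9 and 99.9 CPM (-0.07) and Phlda1 at 662 and 677 CPM (-0.03).

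**Figure D4:**
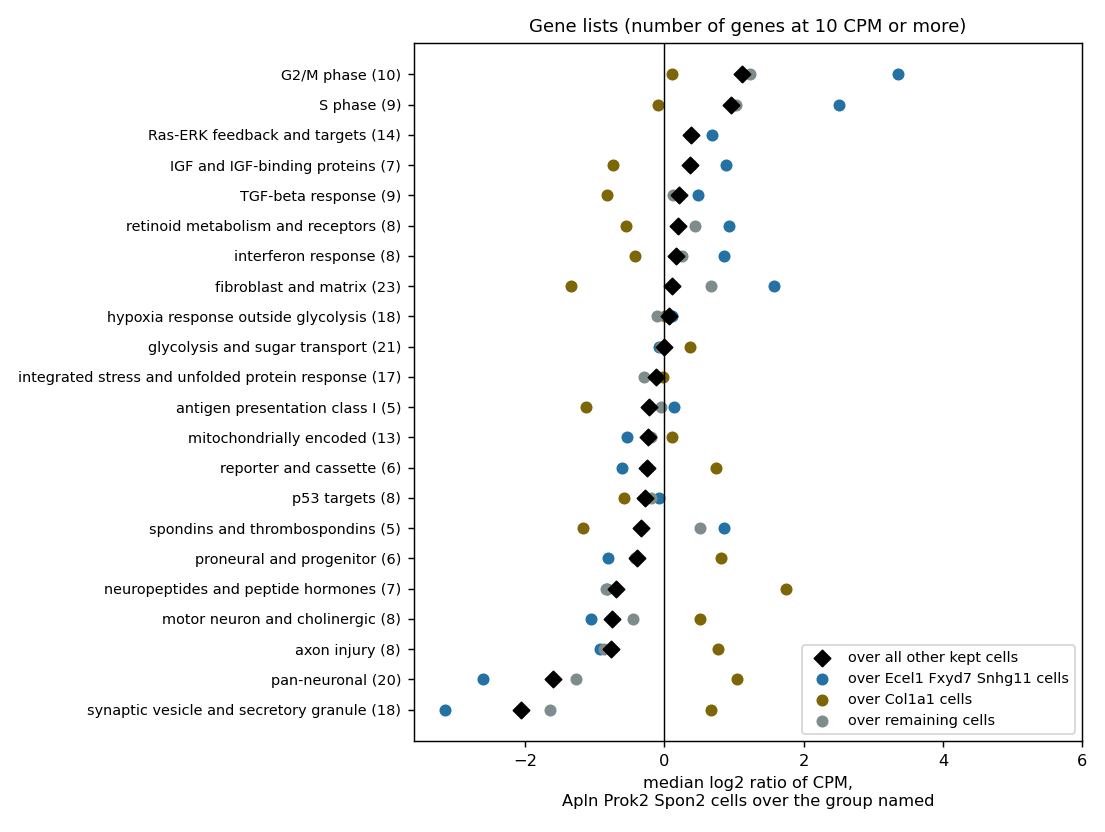
Median log2 ratio of CPM in Apln Prok2 Spon2 cells over all other kept cells (diamonds) and over each of the 3 other groups (circles), for lists with at least 5 genes at 10 CPM or more in the first comparison, whose number is in brackets. The pan-neuronal list lies at -1.59 over all other kept cells but at 1.05 over Col1a1 cells, and the fibroblast and matrix list at -1.35 over Col1a1 cells but at 1.57 over Ecel1 Fxyd7 Snhg11 cells.

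The members differed among themselves by the marker that led. Apln had the most marker UMIs in 220 members, Prok2 in 149 and Spon2 in 62, and 25 were tied. Median depth was 13290.5, 13405 and 11730.5 UMIs in the same order. The genes named for this split are outside the rule for named genes and were picked from its extremes after their values were seen.

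The Prok2-led cells had more reporter transcripts than the Apln-led ones, while peptide genes differed in both directions. The reporter v.EGFP stood at 1952 CPM in Prok2-led, 1284 CPM in Apln-led and 1207 CPM in Spon2-led cells. The peptide gene Cck stood at 866 CPM in Prok2-led, 486 CPM in Apln-led and 296 CPM in Spon2-led cells and was detected in 87.2%, 75% and 69.4% of the cells. Galanin, Gal, stood at 978, 576 and 231 CPM, but 1 cell gave 37.1% of its UMIs in Prok2-led and 37.4% in Apln-led cells. Penk, the gene of enkephalin precursors, was lower, at 12.5 CPM in Prok2-led and 65.4 CPM in Apln-led cells, with 40.7% and 24.3% of its UMIs in 1 cell. Eif4e3 stood at 174, 62.1 and 95.7 CPM, highest in the Prok2-led cells. Tesc stood at 126 CPM in Prok2-led and 44.5 CPM in Apln-led cells. Ccnd1 was lowest there, at 485 CPM in Prok2-led, 1042 CPM in Apln-led and 1085 CPM in Spon2-led cells.

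Some fibroblast, matrix and adhesion transcripts were highest in the Spon2-led cells and others in the Apln-led cells. S100a4 stood at 439 CPM in Spon2-led, 90.7 CPM in Apln-led and 24.2 CPM in Prok2-led cells, and 1 cell gave 35.5% of it in the first. Tgfbi, an adhesion protein induced by TGF-beta, had 144, 46.5 and 14.4 CPM in these 3 groups, with 17.9% of its Spon2-led UMIs in 1 cell. The protease gene Adamts1 stood at 124, 37.7 and 24.2 CPM. Igfbp3 stood at 1474, 957 and 802 CPM and Col1a2 at 1593, 1085 and 868 CPM. Apln-led cells had the highest level of the cytokine gene Il33, at 107 CPM, against 36.3 CPM in Prok2-led and 12.3 CPM in Spon2-led cells. The thrombospondin gene Thbs1 was also highest there, at 81.5 CPM, against 27.4 CPM in Prok2-led and 36.8 CPM in Spon2-led cells. So was the matrix gene Spp1, at 568, 196 and 130 CPM, with 88.7% of its Spon2-led UMIs in 1 cell. Shisa2 and Aldh1a3 hardly differed, at 109, 122 and 126 CPM and at 135, 129 and 132 CPM in Spon2-led, Apln-led and Prok2-led cells. G2/M-high cells were 12.9% of Spon2-led (5.74 to 23.9), 25% of Apln-led (19.4 to 31.3) and 22.8% of Prok2-led cells (16.3 to 30.4), shares whose intervals overlap.

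**Figure D5:**
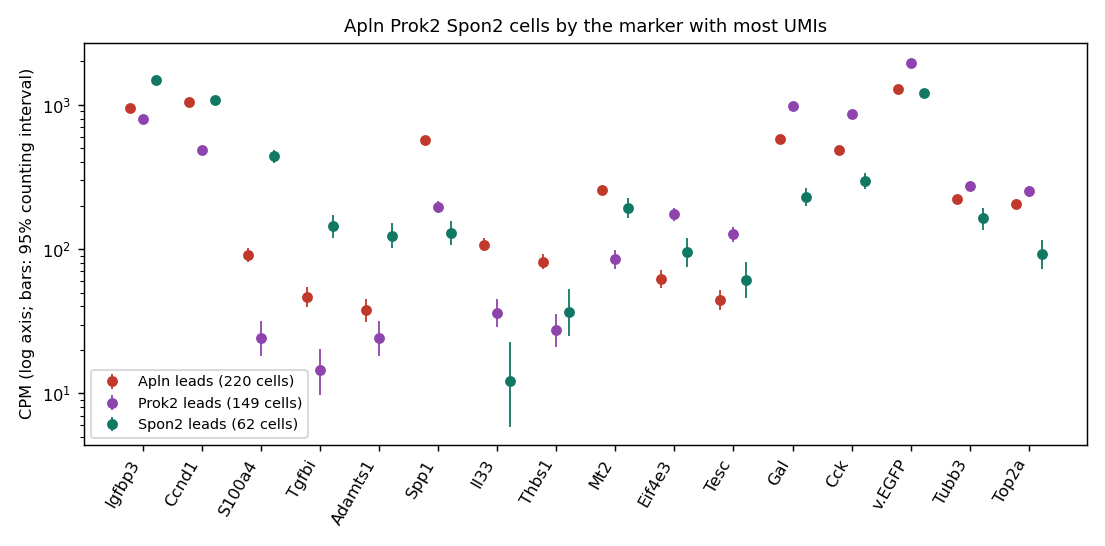
CPM on a log axis of selected genes in members grouped by the marker with most UMIs, with 95% counting intervals; cells with a tie are left out. S100a4 lies at 439 CPM in Spon2-led, 90.7 CPM in Apln-led and 24.2 CPM in Prok2-led cells, while Eif4e3 is highest in Prok2-led cells at 174 CPM.

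The 61 cells that met the same rule with supplements gave the only other view of these contrasts. There, 279 of 9219 genes (3.03%) were at least 2-fold higher than in the other kept cells of that library and 377 (4.09%) at least 2-fold lower. Over the 8550 genes measured in both libraries, 100 were higher without and 186 with supplements, and 32 were shared, which is 32% of the first list and 17.2% of the second. Of 388 lower genes without and 303 with supplements, 167 were shared, 43.0% and 55.1%. Of all 8550 genes, 2.18% were higher and 3.54% lower with supplements. The rule chose both sets of cells by the same genes, so some overlap is built in. Aldh1a3 had a ratio of 1.29 without and 1.32 with supplements (1.04 to 1.59), Pclaf 1.31 and 1.26, Top2a 1.23 and 1.16 and Crabp1 0.84 and 0.83. Shisa2 had 1.80 without and 0.96 with supplements (0.68 to 1.22), and Grem1 1.38 and 0.52 (0.25 to 0.77). Igfbp3 had 0.52 without and 1.37 with supplements (1.27 to 1.47), the larger ratio being that with supplements. The pan-neuronal median was -1.59 without and -0.86 with supplements, and the differences between the libraries were not tested.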

How the data were processed

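Single cells of 3 libraries, each the only one of its group, were counted. Per the labels' protocols, live cells were sorted and the 10x Genomics 3′ v3.1 kit was used. Per the file headers, the deposited UMI counts come from Cell Ranger 6.1.1, and per the submitters' processing notes the build was GRCm39. The calling of cell barcodes and the treatment of intronic reads are not stated in the labels or headers. The 31783 features were summed to 31744 symbols.

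Of 3893 deposited barcodes of the library without supplements (46150432 UMIs), 177 were removed by the limits of 500 genes and 20% mitochondrially encoded UMIs. Totals were 37112015 UMIs with supplements and 12290301 at 4 dpi. The members and all 36 gene lists were chosen with earlier results of these data known, so they are no independent evidence. UMIs were summed over members and over other kept cells and scaled to CPM per 1000000 UMIs, which means that a cell with more UMIs weighs more. Intervals of log2 ratios and of shares are exact (Clopper-Pearson), the first from how UMIs divide between both sides. A gene counted as higher or lower at 2-fold or more with at least 10 CPM on either side. A sum of 0 was set to 3 counts over the group. PCR duplicates are removed by UMIs, but free RNA was not corrected. Since every group is a single library, nothing was tested and no p-value is given. Shares were also taken after thinning cells to 3000 UMIs, which left out 1 member and 86 other kept cells. Scrublet (scanpy 1.11.5) called 1 doublet in the whole library, so it did not work here and doublets stayed in. An alternative dropped the top 5% of scores, which held 23 members (5.04%) and 158 other kept cells (4.85%).

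Named genes exclude the 7 rule genes. They are the 12 highest and 12 lowest ratios at 50 CPM or more, the 8 with the largest smallest ratio over the 3 other groups, Aldh1a3 and Igfbp3, the 2 highest and 2 lowest of each list at 10 CPM or more, and the apelin, prokineticin, reporter and cassette genes. Promoter windows came from RefSeq, which had 1 each for Apln and Prok2 and 0 for Spon2. Alternatives changed the rule's limits, the cell filters, the scaling (edgeR 4.0.16 TMM factors among them) and the cells on each side. The ratio computation was tested on simulated counts. Some results for items withheld for evaluation are not reported here.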

Additional observations from a re-analysis of the deposited data

Results flagged for a closer look

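Among the genes past 2-fold without supplements, 3 stood out because they differed by at least 1.5-fold in opposite directions in the 14 dpi libraries, at 10 CPM or more in each and with both counting intervals clear of 0. Rspo1 (1.46 without and -0.89 with supplements) and Krtdap (1.16 and -1.68) also differed in direction, but with 7 and 1 UMIs in the cells with supplements and intervals there that span 0. In each case this difference between the libraries was not tested, and the genes were found by searching the named genes. Igfbp7, a carrier of insulin-like growth factors, had a log2 ratio of -1.34 in the Apln Prok2 Spon2 cells without supplements, while cells that met the same rule with supplements had 0.66 (0.31 to 0.99). Lum, a matrix proteoglycan, had -1.91 without and 0.94 with supplements (0.76 to 1.11). With no Col1a1 limit, the ratios without supplements were 0.14 for Igfbp7 and 0.72 for Lum. Ccnd1, the gene of cyclin D1, had 1.12 without and -0.61 with supplements (-0.74 to -0.49). It stood at 860 CPM in the members and 396 CPM in the other kept cells without supplements, and at 416 CPM in rule-meeting cells and 636 CPM in the others with supplements. The library with supplements gave only 61 such cells.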

How the results depend on the processing

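No paired analysis was possible because each group has 1 library and the result comes from no test. Only list medians and named genes were followed over 16 alternative settings. There 333 of 352 list medians and 819 of 832 ratios of the 52 named genes past 2-fold kept their sign. Over all 125 named genes followed, 1893 of 2000 ratios did. Their size was less stable. Outside the interval of the main setting lay, besides the 13 that reversed, 227 of the 832 ratios. For a list the range used ran from the median of its genes' lower bounds to the median of their upper bounds. That range is no interval of the list median, and 76 of the 352 list medians lay outside it. The share of kept cells that met the rule was 18.1% at a marker minimum of 2 UMIs, 5.46% at 6, 10.1% with Col1a1 under 5, 17.1% with no Col1a1 limit, 3.39% after thinning to 3000 UMIs and 10.7% with G2/M-high cells left out of both sides. The count of higher genes was 61 at a marker minimum of 2, 71 with Col1a1 under 5, 270 with no Col1a1 limit, 485 after thinning, 4264 with no CPM minimum, 36 at 50 CPM, 224 with G2/M-high cells left out of the other side only and 71 with them left out of both. The count of lower genes was 1079 after thinning, 1947 with no CPM minimum and 107 at 50 CPM. With no Col1a1 limit, reversed ratios were 0.44 for Dcn, 0.14 for Igfbp7, 0.72 for Lum and 0.21 for Tagln. After thinning they were 0.43 for Dcn, 0.085 for Lum, 0.52 for Tagln, -0.19 for Sox2 and -0.035 for Krtdap. Without G2/M-high cells on either side, an alternative added after seeing the data, they were -0.53 for Hmmr, -0.35 for Cenpf and -0.46 for Mki67. The intervals of these last ratios span 0. Against other kept cells that obey both upper limits, also added later, Tagln had 0.041. Thinning leaves 123 rule-meeting cells with few UMIs each, and the lack of a CPM minimum lets in genes with a few counts. Among these, genes with no member UMI can be called higher, because a sum of 0 was set to 3 counts. For the other settings the cause was not tested. TMM scaling moved the median over all genes to 0.02, against -0.07. At 1 library per group no setting can show how far another culture would differ.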

Other observations

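Transcripts of Xist and of Y-linked genes were both present. Xist without Y-linked transcripts was found in 51.1% of Apln Prok2 Spon2 cells (46.4 to 55.8) and 50.03% of the other kept cells (48.3 to 51.8), and Y-linked transcripts without Xist in 35.5% (31.1 to 40.1) and 33% (31.4 to 34.7). Both were found in 6.80% of members and 5.77% of the others. Within Xist-only cells the log2 ratio of Shisa2 was 1.69, and within Y-only cells it was 1.88. That of Stmn2 was -3.70 and -4.55. Nptx1 differed more, at 1.22 in Xist-only cells and 0.26 in Y-only cells, and Efemp1 at 1.27 and 0.38, differences that were not tested.

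In the stress response, p53 and interferon lists no gene was past 2-fold. Of all genes 1.32% were at least 2-fold higher and 5.05% lower, so these counts are near that of all genes. Of 17 genes of the integrated stress and unfolded protein responses 0 were, with a median of -0.12. The chaperone Hspa5 stood at 649.7 CPM in the members and 478 CPM in the other kept cells (0.44), and the factor Atf5 at 36.2 and 68.1 CPM (-0.91). None of 8 p53 targets was past 2-fold, and the cell cycle inhibitor Cdkn1a stood at 118 and 190 CPM (-0.69). Of 8 interferon response genes 7 were higher, none past 2-fold, with a median of 0.17. In the axon injury list, in contrast, 3 of 8 genes were at least 2-fold lower (5.05% of all genes), with a median of -0.77. Among them was the cell death gene Hrk at 19.1 and 60.8 CPM (-1.67). Of 7 neuropeptide genes 3 were at least 2-fold lower (5.05% of all genes), and Cartpt, at 10.8 and 24.4 CPM, had 76.7% of its member UMIs in 1 cell.

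Cells with at least 3 UMIs of Krtdap or Ndufa4l2 made up 14.9% of the members (11.8 to 18.5) and 10.6% of the other kept cells (9.55 to 11.7). By group the share was 12.2% of remaining cells (10.9 to 13.7), 8.29% of Ecel1 Fxyd7 Snhg11 cells and 6.91% of Col1a1 cells. The interval of the remaining cells overlaps that of the members. Cells were not thinned for these shares, and the members had more UMIs per cell than the other kept cells.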
